A study of Equus caballus with 2 samples.

Results

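Cyclic nucleotide phosphodiesterases were followed in cultured equine endometrial fibroblasts with and without TGF-β1. The 9 genes described are *PDE1A*, *PDE1C*, *PDE3A*, *PDE4B*, *PDE4D*, *PDE5A*, *PDE7B*, *PDE8A* and *PDE10A*, out of 21426 genes listed. They were chosen from earlier results of these same libraries, with the strong difference in *PDE1A* between the libraries already known, so that their values are a description and no test was made on them. All 9 were found by symbol in both libraries. Endometrial fibroblasts of 4 mares, cultured on collagen-coated hydrogels, were pooled into 1 droplet library per treatment. Control cells had no supplement, and the TGF-β1 cells had human recombinant TGF-β1 at 10 ng/ml for 24 h, both in serum-free medium with albumin. The MFGE8-treated cells of the study were not analysed here. Because each treatment was 1 library, library and treatment cannot be told apart.

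Phosphodiesterases hydrolyse the second messengers cAMP and cGMP and so set how long and where in the cell a cyclic nucleotide signal lasts. PDE4, PDE7 and PDE8 enzymes act on cAMP, PDE5 acts on cGMP, and PDE1, PDE3 and PDE10 enzymes act on both. PDE1 enzymes are switched on by calcium-bound calmodulin, and PDE3 enzymes are inhibited by cGMP. In fibroblasts of many tissues, cAMP and cGMP signals are known as brakes on activation by TGF-β1.

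Each transcript was counted by its unique molecular identifier (UMI), a tag that lets copies made by amplification be counted once. Of 4384 control barcodes, 3865 passed limits of 20000 UMIs or more, 3500 genes or more and under 4% mitochondrial UMIs, and of 5124 TGF-β1 barcodes 4513 did. Passing cells held 210497250 control UMIs and 219731144 TGF-β1 UMIs, with medians of 50313 and 43142 UMIs per cell. The libraries shared 6 barcodes, 2 of them among kept cells. All 7 fibroblast markers looked for were found in more than 10% of cells of both libraries. The 4 endothelial markers summed to 0.784 CPM with control and 0.410 CPM with TGF-β1 cells, where CPM is UMIs per 1000000 UMIs of a library. The 9 smooth muscle or pericyte markers, many of which activated fibroblasts also express, summed to 9152 and 12908 CPM. *TAGLN* (4603 and 7052 CPM) and *ACTA2* (3608 and 4745 CPM) gave most of this sum. *CNN1* (193 and 453 CPM) and *RGS5* (51.7 and 61.1 CPM) were also higher with TGF-β1. *DES* (646 and 569 CPM), *MYH11* (42.9 and 25.3 CPM) and *MCAM* (5.78 and 1.75 CPM) were lower. *CSPG4* (1.07 and 1.11 CPM) and *NOTCH3* (0.20 and 0.14 CPM) were scarce. The 5 epithelial markers found summed to 134 and 12.1 CPM, of which *KRT8* gave 114 and 4.48 CPM, while *EPCAM* had 1 and 3 UMIs and *CDH1* 6 and 4. The 4 immune markers summed to 56.6 and 52.9 CPM, of which *CD68* gave 42.6 and 43.1 CPM, while *PTPRC* had 1 and 0 UMIs and *CD3E* 2 and 1. The part of these other markers in the phosphodiesterase values was not tested.

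*PDE1A* was far scarcer in the TGF-β1 library (log2 ratio -3.05) and *PDE10A* more abundant (1.40), so that enzyme genes that stood next to each other in the control order stood far apart after TGF-β1. *PDE5A* and *PDE1C* were also lower, *PDE4D* was higher, and *PDE4B* differed by less than its counting error. *PDE4D* was the most abundant of the 9 genes in both libraries. Brackets give 95% intervals, which are exact binomial and cover counting error only, not the difference between mares or between cultures.

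**Figure D1:**
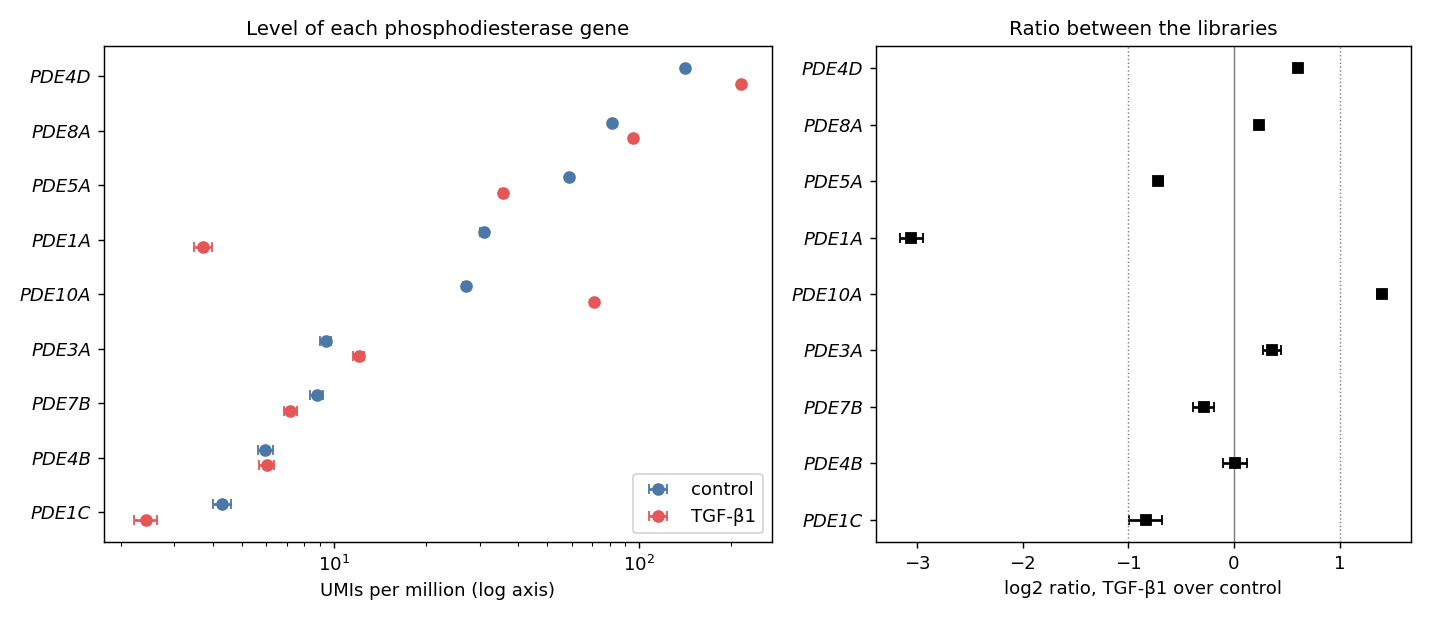
Level of each of the 9 phosphodiesterase genes in CPM on a log axis (left; blue, control; red, TGF-β1) and log2 ratio of TGF-β1 over control (right), each with its 95% counting interval, in the order of the control level. *PDE1A* went from 30.9 to 3.72 CPM and *PDE10A* from 27.0 to 71.2 CPM, and these alone of the 9 lay outside the dotted lines at 2-fold.

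*PDE1A* (ENSECAG00000022509 in the files), which encodes a calmodulin-activated enzyme, had 6500 control UMIs and 818 TGF-β1 UMIs. Its level was 30.9 CPM and 3.72 CPM, a log2 ratio of -3.05 (-3.16 to -2.95). Among the 7658 genes whose mean was 10 CPM or more, this ratio stood 4th from the lowest. The other calmodulin-activated gene of the set, *PDE1C*, was the scarcest of the 9 genes in both libraries. It had 906 control UMIs (4.30 CPM) and 531 TGF-β1 UMIs (2.42 CPM). Its log2 ratio was -0.83 (-0.99 to -0.68), in the same direction as *PDE1A* but within 2-fold. With the share of UMIs on ribosomal protein genes standardised over both libraries it was -1.20, past 2-fold.

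*PDE10A*, best known as the phosphodiesterase of the striatum, also hydrolyses both nucleotides. It had 5693 control UMIs and 15648 TGF-β1 UMIs, which is 27.0 and 71.2 CPM. The log2 ratio was 1.40 (1.35 to 1.44), 84th from the highest of the 7658 genes. *PDE3A*, the cGMP-inhibited enzyme, was rare in both libraries, with 1974 and 2644 UMIs, or 9.38 and 12.0 CPM. Its log2 ratio of 0.36 (0.28 to 0.44) was small beside that of *PDE10A*, and it was -0.01 with the share of UMIs on ribosomal protein genes standardised over both libraries.

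*PDE5A*, the target of sildenafil and the only cGMP-specific enzyme among the 9, had 12369 control UMIs and 7863 TGF-β1 UMIs. Its level was 58.8 and 35.8 CPM, a log2 ratio of -0.72 (-0.76 to -0.67). This was in the opposite direction to the cAMP-specific gene *PDE4D*.

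Of the cAMP-specific genes, *PDE4D* had 29657 and 47089 UMIs, or 141 CPM without and 214 CPM with TGF-β1. Its log2 ratio was 0.61 (0.58 to 0.63), and 0.37 with the share of UMIs on ribosomal protein genes standardised over both libraries. *PDE4B*, its paralog, had 1254 UMIs (5.96 CPM) and 1321 UMIs (6.01 CPM). The log2 ratio of *PDE4B* was 0.01, with an interval from -0.10 to 0.13 that spans 0, the only one of the 9 that did. *PDE8A*, an enzyme with a high affinity for cAMP, had 17080 and 21013 UMIs, or 81.1 and 95.6 CPM, a log2 ratio of 0.24 (0.21 to 0.27). *PDE7B* had 1845 and 1579 UMIs, or 8.76 and 7.19 CPM, a log2 ratio of -0.29 (-0.38 to -0.19). Under the same standardisation the log2 ratio of *PDE8A* was -0.09, so it changed sign, and that of *PDE7B* was -0.62, further below 0.

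In the control library the order from the most to the least abundant was *PDE4D*, *PDE8A*, *PDE5A*, *PDE1A*, *PDE10A*, *PDE3A*, *PDE7B*, *PDE4B* and *PDE1C*. Of these neighbours, only *PDE3A* (8.97 to 9.80 CPM) and *PDE7B* (8.37 to 9.17 CPM) had overlapping counting intervals. In the TGF-β1 library *PDE10A* had passed *PDE5A* and *PDE1A* stood after *PDE4B*, and the order was *PDE4D*, *PDE8A*, *PDE10A*, *PDE5A*, *PDE3A*, *PDE7B*, *PDE4B*, *PDE1A* and *PDE1C*, with no overlap between neighbours. The library captures 3′ ends, so these levels were compared between genes without scaling by length. Whether intronic reads were counted is not given in the sources used here, and the part of gene length in the order was not tested.

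By number, 4 of the 9 genes were lower and 5 higher in the TGF-β1 library, and the median log2 ratio was 0.01. With the ribosomal protein share of the cells standardised over both libraries, 7 were lower and 2 higher, *PDE4D* and *PDE10A*. Of those lower, *PDE3A* (-0.01), *PDE4B* (-0.07) and *PDE8A* (-0.09) were near 0. The share of all genes that were lower under this standardisation was not taken. Without it, over the 12116 genes whose mean was 1 CPM or more, the median was -0.01 and 48.7% were higher. Of the 6 members whose mean reached 10 CPM, 1 was more than 2-fold lower and 1 more than 2-fold higher. Of all 7658 genes at that level, 2.13% were more than 2-fold lower and 2.3% more than 2-fold higher. Because the members were chosen with these ratios known, nothing is read from their count.

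The 9 genes together held 77278 control UMIs and 98506 TGF-β1 UMIs, or 367 and 448 CPM. Their summed log2 ratio was 0.29 (0.27 to 0.30), much smaller than those of *PDE1A* and *PDE10A*, and it was 0.02 (398 and 404 CPM) with the ribosomal protein share standardised. *PDE1A* held 8.41% (8.22 to 8.61) of these UMIs without and 0.830% (0.775 to 0.889) with TGF-β1. *PDE10A* went the other way, with 7.37% and 15.9%. *PDE4D* held the largest share in both libraries, 38.4% and 47.8%.

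Grouped by substrate, the 4 genes whose enzymes act on both nucleotides, which include *PDE1A* and *PDE10A*, held 19.5% of the control UMIs and 19.9% of the TGF-β1 UMIs. The mixture within this group was different while its share was nearly the same. The 4 cAMP-specific genes held 64.5% and 72.1%. *PDE5A*, the cGMP-specific gene, held 16.0% and 7.98%. Over all 21 genes with a catalytic subunit, the cGMP-specific class of 5 genes had 76.0 and 49.2 CPM, and the cAMP-specific class of 8 genes had 300 and 391 CPM.

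To count cells at equal depth, every kept cell was thinned to 20000 UMIs. *PDE1A* was found in 33.0% (31.5 to 34.5) of 3865 thinned control cells and in 5.23% (4.60 to 5.92) of 4513 thinned TGF-β1 cells. Without thinning the shares were 51.3% and 10.3%. *PDE10A* was found in 29.8% (28.3 to 31.2) and 57.3% (55.8 to 58.8) of thinned cells. The libraries thus differed in opposite directions for these genes in cells as well as in UMIs. How many of these UMIs came from free RNA in the droplets was not measured, since no cell type that should lack the genes was at hand.

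*PDE4D* was found in 70.8% of thinned cells without and 80.3% with TGF-β1, and *PDE8A* in 67.9% and 75.4%. *PDE5A* was found in 60.6% and 44.8%. The other genes were found in few cells of either library. *PDE3A* was found in 11.9% and 14.4%, *PDE7B* in 10.5% and 10.7%, *PDE4B* in 9.11% and 9.93%, and *PDE1C* in 6.05% and 3.52%.

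**Figure D2:**
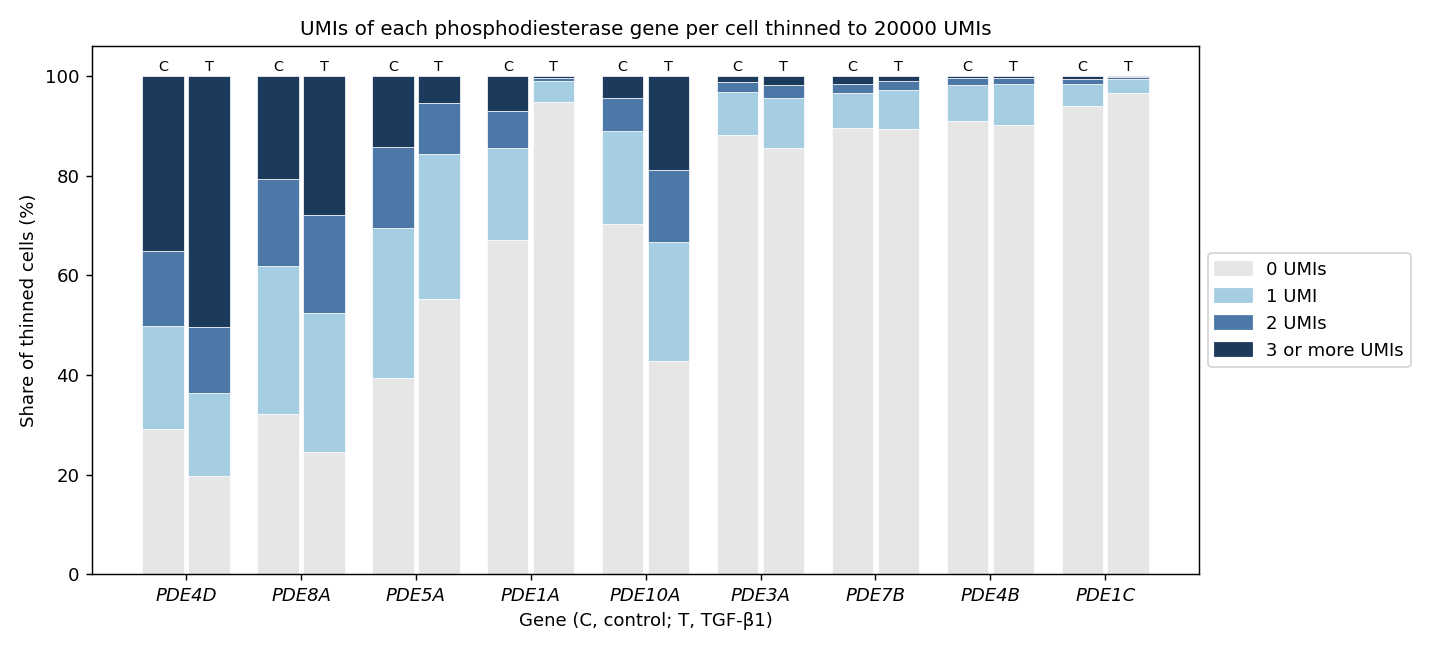
Share of thinned cells with 0, 1, 2, or 3 or more UMIs of each phosphodiesterase gene (percent, stacked bars; C, control, 3865 cells; T, TGF-β1, 4513 cells). *PDE1A* had no UMI in 67.0% of cells without and 94.8% with TGF-β1, and *PDE10A* in 70.2% and 42.7%.

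The UMIs were spread unevenly over cells. *PDE1A* had 3 or more UMIs in 6.99% of thinned control cells and in 0.377% of thinned TGF-β1 cells, and at most 14 and 8 UMIs in a cell. No *PDE1A* UMI was seen in 67.0% of thinned control cells, where a Poisson distribution with the same mean gives 53.6%. In the control cells that had the gene, the mean was 1.89 UMIs, and in the TGF-β1 cells that had it, 1.33 UMIs. Both the share of cells and the number of UMIs per positive cell were thus lower with TGF-β1, although at these depths a positive cell cannot have less than 1 UMI.

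The ratio of variance to mean, which is 1 for a Poisson distribution, was 4.51 for *PDE4D* without and 5.71 with TGF-β1. This ratio grows with the mean of a gene, so it was not used to rank the genes. *PDE4D* was missed in 29.2% of thinned control cells against 7.48% for a Poisson distribution, and the richest cell had 38 UMIs. The 10% of control cells richest in the gene held 40.7% of the *PDE4D* UMIs and 56.1% of the *PDE1A* UMIs. *PDE10A* had ratios of 2.28 and 2.66, and 3 or more UMIs in 4.53% of cells without and 19.0% with TGF-β1.

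A thinned cell held transcripts of a median of 3 of the 9 genes in each library, and a mean of 3.00 without and 3.02 with TGF-β1. The number of phosphodiesterase genes seen per cell was therefore nearly the same although their identities differed. None of the 9 was seen in 2.07% of cells without and 1.97% with TGF-β1, and no cell held all 9, the highest number being 8.

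The pair *PDE1A* and *PDE10A* was sorted by cell. In the control library 22.8% of thinned cells had *PDE1A* without *PDE10A*, 19.6% had *PDE10A* without *PDE1A*, 10.2% had both and 47.4% had neither. In the TGF-β1 library 2.28% had *PDE1A* without *PDE10A*, 54.4% had *PDE10A* without *PDE1A*, 2.95% had both and 40.4% had neither. The cells with *PDE1A* alone were thus few after TGF-β1, and those with *PDE10A* alone were the commonest class. Within a library the genes showed little relation to each other. Both were seen in 393 control cells where independence gives 379.7, and in 133 TGF-β1 cells where independence gives 135.2.

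Over all 36 pairs of the 9 genes, co-detection was described by the odds ratio, which is above 1 where cells with one gene have the other more often. It was above 1 for 34 control pairs (median 1.19) and for 32 TGF-β1 pairs (median 1.26). Within 5 strata of cells by their share of UMIs on ribosomal protein genes, 30 pairs were above 1 in each library. The pairs share cells and libraries, and the odds ratios are descriptions with no test. The share of other gene pairs above 1 was not taken, so nothing particular to these genes is read from the counts. Doublets were not removed, and their part in co-detection was not tested.

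*PDE7B* took part in the pairs with the highest odds ratios. With *PDE1C* it was seen in 42 control cells where independence gives 24.6, an odds ratio of 1.96, and in 36 TGF-β1 cells where independence gives 17.0. With *PDE4B* it was seen in 62 control cells against 37.0 (odds ratio 1.97) and in 67 TGF-β1 cells against 47.8 (1.55). These are rare genes, and the pairs rest on few cells. *PDE3A* and *PDE7B* had an odds ratio of 1.36 without and 1.97 with TGF-β1.

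*PDE1A* and *PDE4B* had the lowest odds ratio in both libraries. They were seen together in 110 control cells where independence gives 116.2 (odds ratio 0.915) and in 13 TGF-β1 cells where independence gives 23.4 (0.515). With *PDE3A*, in contrast, *PDE1A* had odds ratios of 1.40 and 1.78. Among the abundant genes, *PDE4D* and *PDE8A* were together in 1920 control cells (1.40) and 2813 TGF-β1 cells (1.75).

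**Figure D3:**
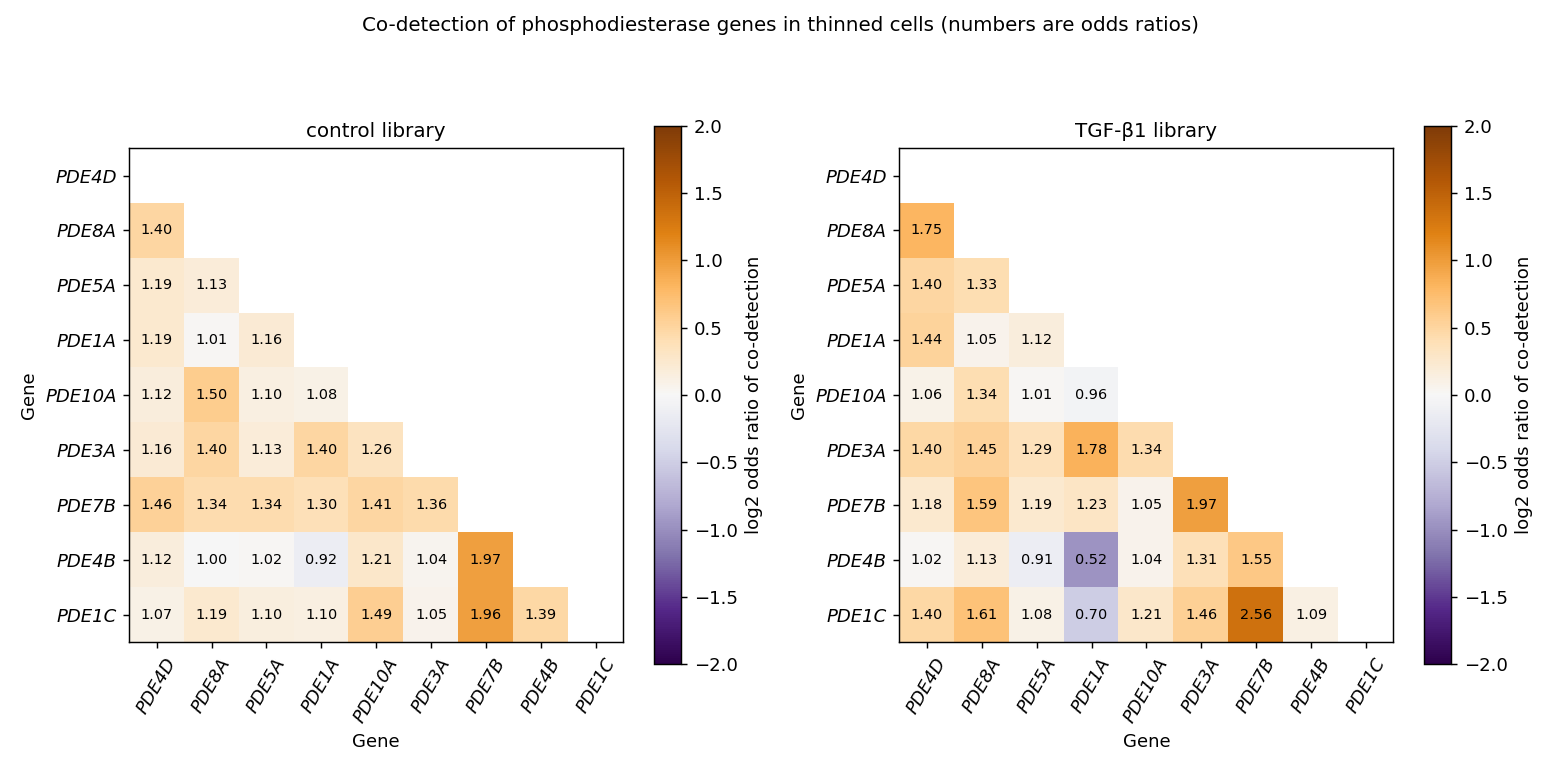
Odds ratio of co-detection for the 36 pairs of phosphodiesterase genes in thinned cells of the control (left, 3865 cells) and TGF-β1 (right, 4513 cells) libraries. Colour gives the log2 odds ratio, and most pairs are above 1, while *PDE1A* with *PDE4B* is below 1 in both libraries (0.915 and 0.515).

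Cells of both libraries were sorted into 8 rebuilt clusters, called here by number. *PDE1A* was more than 2-fold lower in the TGF-β1 library in all 8 clusters, with log2 ratios from -4.12 to -1.10, and *PDE10A* was more than 2-fold higher in all 8, from 1.16 to 1.71. With 6 coarser clusters, *PDE1A* was more than 2-fold lower in 5. *PDE5A* was lower in 8 clusters (-0.97 to -0.47) and *PDE4D* higher in 8 (0.15 to 0.82), with the interval of *PDE4D* spanning 0 in 1 of them. The intervals of *PDE4B* spanned 0 in every cluster. The clusters were made from the same counts, and they are no independent samples of the treatment.

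In the control library *PDE1A* ranged from 15.3 CPM in cluster 5 to 49.7 CPM in cluster 7, led by *CA4*. Cluster 3, led by *COL4A3*, was close to the highest with 48.5 CPM. In the TGF-β1 library the level of *PDE1A* was between 1.77 and 5.63 CPM in 7 of the clusters and 23.1 CPM in cluster 7. This last value rests on 64 UMIs in 57 cells, against 292 UMIs in 108 control cells, and the log2 ratio there was -1.10 (-1.52 to -0.71). Cluster 7 held 1.26% of the TGF-β1 cells and 7.82% of their *PDE1A* UMIs, and 15.8% of its thinned TGF-β1 cells had the gene. In cluster 4, led by *EPHA6*, *PDE1A* went from 37.6 to 2.17 CPM, a log2 ratio of -4.12.

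*PDE10A* was highest in cluster 1, led by *FGF14*, at 40.2 CPM in the control and 109.7 CPM in the TGF-β1 library. *PDE4D* was highest in cluster 2, led by *SPP1* and keratin genes, at 204 and 360 CPM. *PDE7B* was highest in cluster 7, at 34.4 and 16.2 CPM. It had opposite directions in the clusters, from a log2 ratio of -1.08 in cluster 7 to 0.98 in cluster 2, where it rested on 75 and 107 UMIs. In the control library 8 of the 9 genes were lowest in cluster 5, led by *MMP9*, which also had the highest share of UMIs on ribosomal protein genes. That share was a median of 19.3% in cluster 5 of the control library. In cluster 6, led by cell cycle genes, *PDE1A* was 20.7 and 3.23 CPM and *PDE10A* 25.4 and 66.4 CPM.

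**Figure D4:**
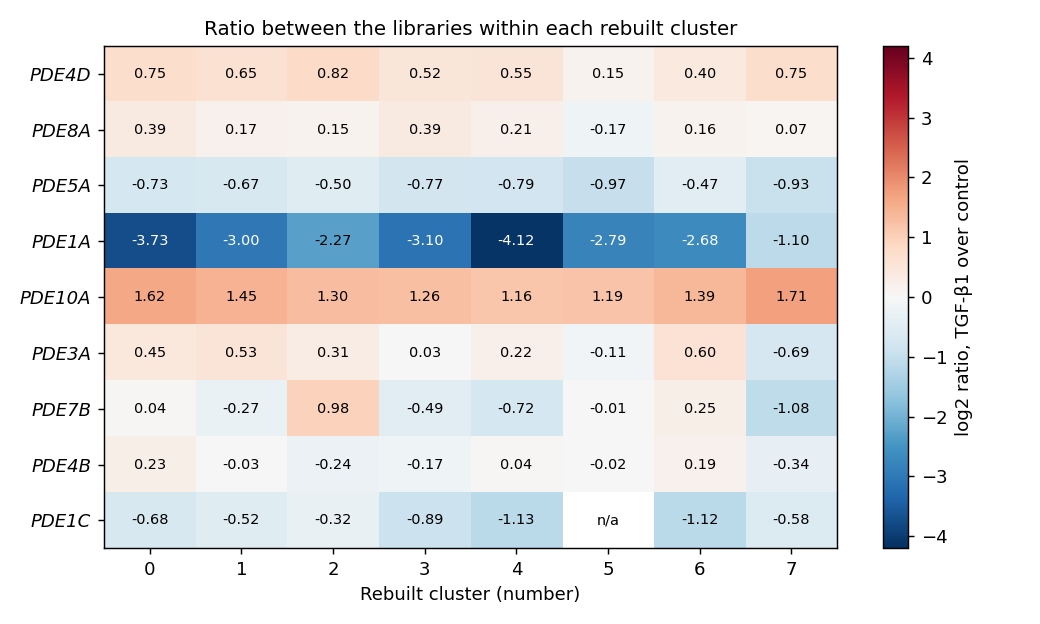
Log2 ratio of TGF-β1 over control for each phosphodiesterase gene (rows) in each of the 8 rebuilt clusters (columns, by number; n/a, 3 or fewer UMIs in a library). The row of *PDE1A* runs from -4.12 in cluster 4 to -1.10 in cluster 7, and that of *PDE10A* from 1.16 to 1.71.

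The cells of the libraries differed in depth and in the share of UMIs on 55 ribosomal protein genes, with medians of 17.1% in the control and 15.0% in the TGF-β1 library. Within 5 strata of that share, *PDE1A* had log2 ratios from -3.37 to -2.87 and *PDE10A* from 0.92 to 1.16. *PDE5A* was lower in each (-1.02 to -0.85) and *PDE4D* higher in each (0.14 to 0.54). *PDE8A* ranged from -0.20 to 0.01 and *PDE3A* from -0.12 to 0.18, and each was above 0 in 1 of the 5 strata. *PDE7B* was below 0 in each, from -1.03 to -0.01. Within 3 strata of UMIs per cell, *PDE1A* ranged from -3.69 to -2.81 and *PDE10A* from 1.30 to 1.72.

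*PDE1A* was set beside *KRT8*, a keratin gene, and *IGFBP3*, an insulin-like growth factor binding protein gene. In the control library it was found in 33.4% (30.4 to 36.4) of the 986 thinned cells with *KRT8* and in 32.9% (31.2 to 34.6) of the 2879 cells without it. In the TGF-β1 library it was found in 4.47% (3.56 to 5.54) of the 1788 cells with *IGFBP3* and in 5.72% (4.88 to 6.66) of the 2725 cells without it. The intervals of *PDE1A* overlap in both libraries. *PDE10A* was found in 25.8% (23.1 to 28.6) of control cells with *KRT8* and 31.1% (29.4 to 32.8) of those without, and these intervals do not overlap. The cells with *KRT8* also had a higher median ribosomal protein share, 17.9% against 16.8%, and *PDE10A* had an r of -0.14 with that share over the 3865 control cells. The part of that share in the difference was not tested. In the TGF-β1 library it was found in 58.9% (56.6 to 61.2) of cells with *IGFBP3* and 56.3% (54.4 to 58.1) of those without.

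Among the 10 genes most like *PDE1A* over the 3865 thinned control cells, by Pearson's r of log-transformed UMIs among 9084 other genes found in at least 10% of cells, were *SLIT3* (r = 0.19), *AUTS2* (0.18), *RBMS3* (0.18), *ANK2* (0.17), *ESR1* (0.17), *PLEKHA5* (0.16), *DPF2* (0.16), *PDGFRA* (0.16) and *CARMIL1* (0.16). The cells are all of 1 library, the correlations are weak, and each of these genes had a negative r with the ribosomal protein share of the cells. Of these, *SLIT3*, a guidance cue, had a log2 ratio between the libraries of -1.68, and *PDGFRA*, a receptor that marks fibroblasts, -1.60. *ANK2* had -1.35, *PLEKHA5* -1.17 and *ESR1*, the estrogen receptor alpha, -1.07, while *RBMS3* had 0.47.

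For the other members the 3 most similar genes were also taken in the control library, where r was at most 0.30. For *PDE4B* they were *NR4A1* (0.11), *NR4A2* (0.11) and *SLC1A3* (0.09), and for *PDE7B* they were *NR4A2* (0.21), *EDNRB* (0.20) and *PAPPA* (0.20). For *PDE5A* they were *SOX5* (0.19), *TCF4* (0.17) and *PLXDC2* (0.17), and for *PDE10A* they were *FNDC3B* (0.19), *GLIS3* (0.17) and *MYO1D* (0.16). For *PDE4D* they were *KLF12* (0.28), *FNDC3B* (0.28) and *DST* (0.27), and for *PDE8A* they were *SRGAP1* (0.30), *FNDC3B* (0.29) and *PPFIA1* (0.29). For *PDE3A* they were *LAMA2* (0.13), *NBEA* (0.13) and *SETBP1* (0.13), and for *PDE1C* they were *DPF2* (0.12), *PPFIA1* (0.12) and *SSBP2* (0.11). None of the 10 genes most like *PDE1A* in the control library was among its 10 in the TGF-β1 library, and for the other members 1 to 6 of 10 were shared. *PDE1A* was found in only 236 of 4513 thinned TGF-β1 cells, and its highest r in that library was 0.10. The part of this low detection in the lack of shared genes was not tested.

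The other genes of the pathway were taken from 8 lists, of which 71 genes reached a mean of 1 CPM. Of these, 4 were more than 2-fold lower and 5 more than 2-fold higher in the TGF-β1 library, and the median log2 ratio was -0.08. Of all 12116 genes at that level, 3.46% were more than 2-fold lower and 3.45% more than 2-fold higher. The lower genes were *PDE11A*, *NPR3*, *CALCRL* and *NR4A1*, and the higher genes were *PDE3B*, *PRKG1*, *PKIB*, *ADRB3* and *CRTC1*. Only *CALCRL*, *NR4A1* and *PRKG1* reached a mean of 10 CPM, and the other 6 were named after their values were seen. So were *PDE1B*, *PDE4A*, *NPR1*, *ADCY8*, *ADCY2*, *GUCY1A2*, *GUCY1B1*, *PKIA* and *ABCC5*, described next.

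Of the 15 other phosphodiesterase genes, 9 reached a mean of 1 CPM. The most abundant was *PDE8B*, the paralog of *PDE8A*, with 40.5 CPM without and 45.3 CPM with TGF-β1. *PDE4A*, another gene of the *PDE4D* family, had 15.2 and 15.5 CPM, a log2 ratio of 0.03 (-0.04 to 0.10). *PDE11A*, which acts on both nucleotides, had 379 and 67 UMIs (1.80 and 0.305 CPM), and its log2 ratio of -2.56 (-2.96 to -2.18) was in the direction of *PDE1A*. *PDE1B*, the other calmodulin-activated gene, had 1.67 and 0.937 CPM, so that all 3 *PDE1* genes were lower in the TGF-β1 library. *PDE3B* had 114 and 321 UMIs, a log2 ratio of 1.43 (1.12 to 1.75).

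Of the 8 cyclase genes with at least 1 CPM, which make the substrates, none was past 2-fold. Below that minimum some were. *NPR1* had 187 and 28 UMIs, a log2 ratio of -2.80 (-3.43 to -2.22), and *ADCY8* had 25 and 7 UMIs (-1.90). *ADCY2* was higher, with 13 and 50 UMIs (1.88). *GUCY1A2*, a subunit of the nitric oxide receptor which makes cGMP, had 37.3 and 24.3 CPM, a log2 ratio of -0.62. Its partner subunit *GUCY1B1* had 4.31 and 6.82 CPM, a log2 ratio of 0.66. The highest cyclase count was listed for *ADCY10*, the soluble adenylyl cyclase, with 188 and 171 CPM. *POPDC2*, a cAMP-binding membrane protein, had 213 and 184 CPM. The RefSeq neighbours of these genes, *MPC2* and *COX17*, were not found under their symbols, so both levels are uncertain.

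*PRKG1*, the cGMP-dependent protein kinase, had 27.5 and 65.3 CPM, a log2 ratio of 1.25 (1.20 to 1.29), and was higher in all 8 clusters. Its direction was opposite to that of *PDE5A*, whose product degrades cGMP. *PKIB*, an inhibitor of protein kinase A, had 0.418 and 1.82 CPM, and *PKIA*, the more abundant inhibitor, had 24.9 and 20.6 CPM. Among the anchoring proteins, which hold protein kinase A and phosphodiesterases in place, *AKAP12* was the most abundant with 249 and 140 CPM, a log2 ratio of -0.83. Of 11 anchoring genes 8 were higher in the TGF-β1 library, with a list median of 0.09, while 48.7% of all 12116 genes were higher.

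Among the receptors, *CALCRL*, which raises cAMP in response to adrenomedullin and calcitonin gene-related peptide, had 25.6 and 8.57 CPM, a log2 ratio of -1.58 (-1.65 to -1.50), and was more than 2-fold lower in all 8 clusters. *NPR3*, the clearance receptor of natriuretic peptides, had 5.93 and 0.978 CPM (-2.60). *ADRB3*, a beta-adrenergic receptor, had 0.964 and 2.43 CPM. *GNAS*, the stimulatory G protein, was the most abundant gene of its list, with 1698 and 1916 CPM. *ABCC4*, a pump that exports cyclic nucleotides, had 15.0 and 8.89 CPM, and the other exporter listed, *ABCC5*, had 5.05 and 8.43 CPM.

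Downstream of cAMP, the CREB arm was mixed. *NR4A1*, an immediate-early nuclear receptor gene that responds to CREB, had 88.3 and 38.1 CPM, a log2 ratio of -1.21 (-1.25 to -1.18). *CRTC1*, a coactivator of CREB, had 3.39 and 12.3 CPM, a log2 ratio of 1.86 (1.74 to 1.98). *SIK3*, a kinase restrained by protein kinase A, was the most abundant of this list with 131 and 161 CPM. In all, 7 of the 13 genes were lower and 6 higher, with a median log2 ratio of -0.02.

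**Figure D5:**
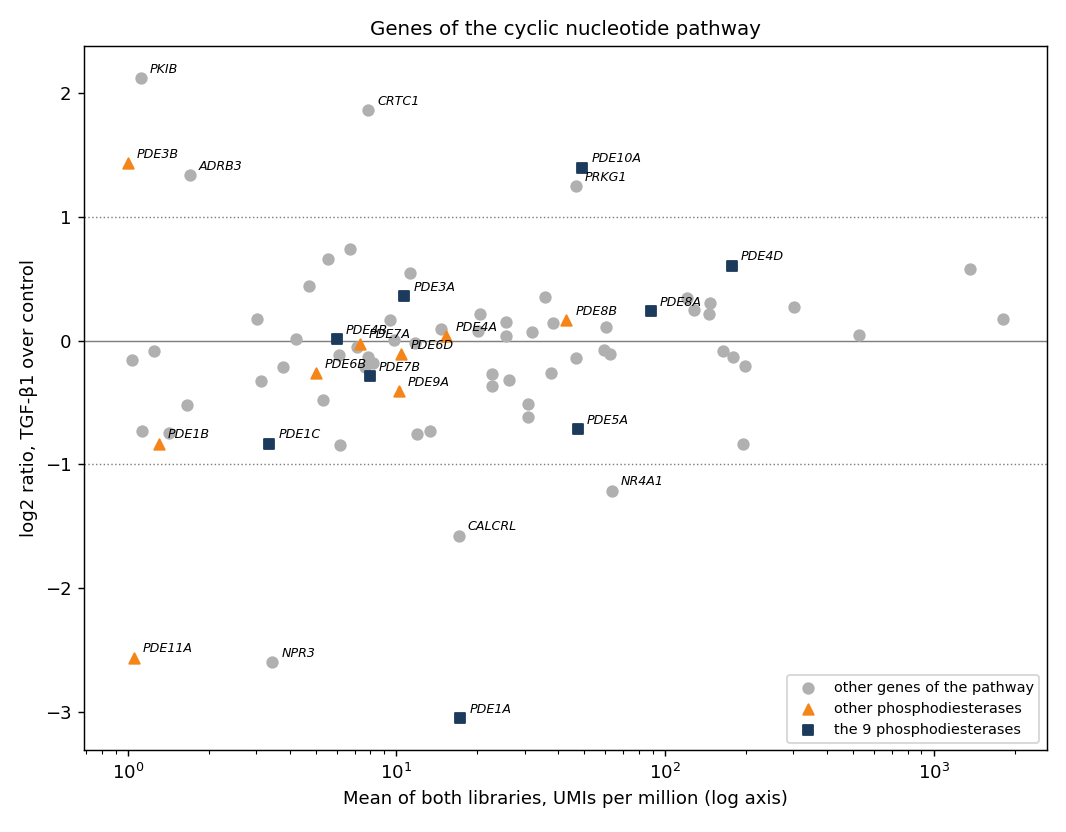
Log2 ratio of TGF-β1 over control against the mean level (CPM, log axis) for the 9 phosphodiesterases (squares), other phosphodiesterases (triangles) and other genes of the cyclic nucleotide pathway (circles) whose mean reached 1 CPM. *PDE1A* is the lowest point at -3.05, and *PDE10A* at 1.40 lies beside *PRKG1* at 1.25.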

How the data were processed

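The authors deposited raw UMI counts of 2 libraries for the barcodes that Cell Ranger called as cells, aligned to EquCab3.0 with Ensembl genes (version 7.1.0 in the methods, 8.0.1 in the file header). Whether intronic reads were counted is not given in the sources used here. Kept cells passed the limits of the study, doublets were not removed, and the study's calls from the reads were not repeated. UMIs were summed per library and scaled to CPM, and log2 ratios carry no pseudocount. Ratios need more than 3 UMIs in each library. Cells were thinned with a fixed seed, and intervals are exact binomial at 95%. Clusters were rebuilt in Seurat 5.3.0 (R 4.3.3) with 2000 variable genes, 30 dimensions, canonical correlation integration and a resolution of 0.5, and they are not the study's. Scripts ran in Python 3.11.15 (pandas 2.3.3, scipy 1.17.1, numpy 2.4.6), and simulated data served to test the ratio code. With 1 library per treatment no test was made.

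The 9 members and all lists were chosen with earlier results of these data known. Named genes were the members, list genes past 2-fold whose mean was 10 CPM or more, the most abundant gene of each list, and the genes most like each member in control cells. A few genes that this rule names are not reported here. By symbol, *AKAP14*, *GUCY2C*, *KRT18*, *MKI67*, *PKIG* and *PTGER2* were not matched. RefSeq gene order, of another assembly, was used only for neighbours. The alternatives covered the cell filters, scaling, thinning, cluster and ribosomal composition, cycling cells, fold limits and CPM minimums.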

Additional observations from a re-analysis of the deposited data

How the results depend on the processing

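Under 11 alternatives the log2 ratio of *PDE1A* stayed between -3.16 and -3.01 and that of *PDE10A* between 1.04 and 1.45. The ratio of *PDE1A* left its counting interval when cells were thinned to 20000 UMIs (-3.16) and when the ribosomal protein share was standardised (-3.16), an alternative chosen after seeing the data, as were those of co-detection. Under that standardisation *PDE8A* had a log2 ratio of -0.09, *PDE3A* -0.01 and *PDE7B* -0.62, in place of 0.24, 0.36 and -0.29, and *PDE1C* passed 2-fold at -1.20. *PDE4D* had 0.37 in place of 0.61, left its counting interval under 6 of 11 alternatives and was positive under all 11. Under the same standardisation the summed log2 ratio of the members was 0.02 in place of 0.29. *PDE4B* had a negative ratio under 4 of 11 alternatives.

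The share of member UMIs from *PDE1A* in the control library was 8.92% as the mean of per-cell CPM, 8.92% after thinning, 8.63% with cluster shares standardised and 7.94% with the ribosomal protein share standardised. With a 1.5-fold limit, 5 members and 19 pathway genes were past it. With a minimum of 10 CPM 3 pathway genes were past 2-fold, and with no minimum 16. The shares of all genes past 1.5-fold, or past 2-fold with no minimum, were not taken, so nothing is read from these counts. *PDE1A* was in 51.3% of control cells and 10.3% of TGF-β1 cells without thinning, and in 21.4% and 3.01% after thinning to 10000 UMIs. Of the 6 clusters at resolution 0.3, *PDE1A* was more than 2-fold lower in 5, and of the 11 at resolution 0.8, in all 11. No paired analysis was possible because the labels number no replicates and the study's split of cells by mare, made from the reads, was not used here. The precision is that of counting alone, and the rare members *PDE1C* and *PDE4B* rest on few UMIs per cluster.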
